A study of Mus musculus with 2 samples.

Results

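Transforming growth factor-β (TGF-β) signalling was followed through 9 genes in single cells of the mouse buccal epithelium: the ligand genes Tgfb1 and Tgfb2, the receptor genes Tgfbr1 and Tgfbr2, the signal transducers Smad3 and Smad7, and the target genes Tgfbi, Id1 and Id3. They were picked by gene symbol, and all 9 were among the 27998 genes of the count tables. The cells came from the buccal mucosa of 10 C57BL/6 female mice aged 12 weeks, pooled without a treatment or genotype contrast. They had been sorted for a high surface level of CD104, the β4-integrin chain that basal keratinocytes use to hold to the basement membrane. The suspension was divided into a pair of technical libraries on the 10x Chromium platform, called library 1 and library 2 here. There is thus 1 independent sample, so no p-value was computed, and the spread between libraries shows capture and counting error but not the spread between mice.

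TGF-β ligands are secreted in a latent form held by latency proteins, and integrins or proteases release them. Active ligand binds the type II receptor (Tgfbr2), which recruits and phosphorylates the type I receptor (Tgfbr1), and this in turn phosphorylates SMAD2 and SMAD3. Smad7 encodes an inhibitory SMAD that is itself induced by the pathway and acts back on the receptors. Id1 and Id3, inhibitors of basic helix-loop-helix transcription factors, are textbook targets of the related bone morphogenetic protein (BMP) branch, while Tgfbi encodes a secreted matrix protein named for its induction by TGF-β. In stratified epithelia TGF-β is best known as a brake on keratinocyte division.

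On GRCm38, with GENCODE M21 gene bounds, Tgfb1 (ENSMUSG00000002603) spans chr7:25687002-25705077 on the plus strand and Tgfb2 (ENSMUSG00000039239) spans chr1:186622792-186705989 on the minus strand. Tgfbr1 (ENSMUSG00000007613) lies at chr4:47353222-47414931, plus strand, and Tgfbr2 (ENSMUSG00000032440) at chr9:116084293-116175360, minus strand. Smad3 (ENSMUSG00000032402) lies on the same chromosome at chr9:63646767-63757994, minus strand. The targets Tgfbi (ENSMUSG00000035493, chr13:56609523-56639562), Id1 (ENSMUSG00000042745, chr2:152736251-152737410) and Id3 (ENSMUSG00000007872, chr4:136143497-136145755) are all on the plus strand. All of these and Smad7 (ENSMUSG00000025880) are protein-coding, and Tgfb2 is the only one that overlaps other annotated genes (Gm26169 and Gm29491, on the opposite strand). The strand setting of the counting is not given in the sources used here, so reads of that overlap may be shared.

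The start-proximal sequences of 5 of the genes are shown. The levels of the first 4 separated most clearly along the epithelium, at least 7.9-fold lower in cells with much Krt4 and Krt13. Tgfbr1, the other receptor gene, is shown last and differed by at most 2.33-fold. Each is the sequence upstream of the gene in RefSeq's GRCm38.p6 promoter set, 5′ to 3′ on the gene's own strand, cut where the gene itself begins. Capitals mark matches on either strand to the SMAD-box letters CAGAC, the GC-rich element GGCGCC, the AP-1 letters TGANTCA or the GC box GGGCGG, and no matches overlapped. The intervals are chr7:25686752-25687001 for Tgfb1 (plus strand), chr1:186705990-186706239 for Tgfb2 (minus), chr9:116175364-116175613 for Tgfbr2 (minus), chr13:56609336-56609522 for Tgfbi (plus) and chr4:47352972-47353221 for Tgfbr1 (plus).
Tgfb1: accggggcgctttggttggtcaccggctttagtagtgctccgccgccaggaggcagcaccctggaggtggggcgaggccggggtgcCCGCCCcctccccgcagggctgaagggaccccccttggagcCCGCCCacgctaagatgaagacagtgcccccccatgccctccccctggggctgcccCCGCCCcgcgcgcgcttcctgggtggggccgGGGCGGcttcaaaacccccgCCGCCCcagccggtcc
Tgfb2: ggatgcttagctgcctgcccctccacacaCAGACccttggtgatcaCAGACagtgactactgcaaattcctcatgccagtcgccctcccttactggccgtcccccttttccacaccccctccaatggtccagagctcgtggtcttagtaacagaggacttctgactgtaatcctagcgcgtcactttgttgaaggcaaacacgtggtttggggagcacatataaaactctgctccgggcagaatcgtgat
Tgfbr2: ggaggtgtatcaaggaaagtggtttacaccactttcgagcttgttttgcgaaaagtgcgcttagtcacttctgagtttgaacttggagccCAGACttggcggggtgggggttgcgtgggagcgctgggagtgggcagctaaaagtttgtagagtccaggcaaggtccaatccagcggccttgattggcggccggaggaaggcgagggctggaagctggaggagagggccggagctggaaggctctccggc
Tgfbi: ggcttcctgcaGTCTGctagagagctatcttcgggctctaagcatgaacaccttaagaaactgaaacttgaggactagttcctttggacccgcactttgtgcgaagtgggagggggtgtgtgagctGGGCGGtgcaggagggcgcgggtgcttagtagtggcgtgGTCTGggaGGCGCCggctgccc
Tgfbr1: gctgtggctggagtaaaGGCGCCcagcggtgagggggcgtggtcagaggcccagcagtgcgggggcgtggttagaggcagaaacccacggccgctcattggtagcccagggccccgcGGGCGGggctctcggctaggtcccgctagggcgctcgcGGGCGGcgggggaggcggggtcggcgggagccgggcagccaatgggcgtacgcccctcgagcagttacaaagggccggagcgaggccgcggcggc
In windows of 250 bases, CAGAC occurred 2 times at Tgfb2, 2 times at Tgfbi and 1 time at Tgfbr2, and it was absent from the printed Tgfb1 and Tgfbr1 windows. Over all 32851 promoter windows of that length, 42.2% held CAGAC, 9.59% GGCGCC, 6.75% TGANTCA and 32.7% GGGCGG. Tgfb1 held 5 GC boxes, and no TGANTCA was found in any window of the 7 genes with an entry, which also include Smad3 and Id3. The windows of the ligand genes Tgfb1 and Tgfb2 had no motif in common. A match is a description and not a site.

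Library 1 held 7215 barcodes with 67962712 unique molecular identifiers (UMIs, 1 per captured transcript) and library 2 held 9076 with 73935792. Barcodes below 500 genes (none) or above 10% mitochondrial UMIs (821) were dropped, which left 15470 of 16291, with a median of 7690 and 6709 UMIs per cell. Levels are UMIs of a gene per 10000 UMIs of the cells in a class, which are not scaled for transcript length, so levels are compared between cells and not between genes. Classes were cut on the sum of Krt4 and Krt13, keratins of the suprabasal oral epithelium: low (below 80 per 10000, 3517 and 4098 cells), middle (80 to 350, 1936 and 2409 cells) and high (350 or more, 1454 and 2056 cells). The defining basal markers were lower with each class: 7 basal genes, among them Krt5, Krt14, Trp63 and Itgb4, summed to 153.4 and 153.9 per 10000 in the low class and to 18.4 and 20.8 in the high class. The sort for CD104 thus left a high class with few basal transcripts. The libraries shared 104 barcodes, and leaving these out changed no call on any of the 9 genes.

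Both ligand genes fell as Krt4 and Krt13 rose. Tgfb1, which encodes TGF-β1, was measured at 0.360 and 0.337 per 10000 in the low class, 0.147 and 0.160 in the middle class, and 0.0342 and 0.0426 in the high class of libraries 1 and 2. The classes did not overlap. The high class was lower than the low class by log2 -3.40 (95% counting interval -3.75 to -3.07) and -2.98 (-3.27 to -2.70), or 10.6- and 7.9-fold. Tgfb2, whose product needs the co-receptor betaglycan for tight binding to its receptor, was at 0.136 and 0.131 in the low class, 0.0291 and 0.0356 in the middle class, and 0.0130 and 0.0116 in the high class. Most of its fall lay between the low and the middle class, at log2 -2.23 (-2.67 to -1.81) and -1.88 (-2.28 to -1.50). Between these classes Tgfb2 fell further than Tgfb1, by log2 -0.93 (-1.42 to -0.46) and -0.80 (-1.25 to -0.37). From low to high the ligands did not differ beyond counting error, with differences of 0.00 (-0.68 to 0.66) and -0.52 (-1.16 to 0.09).

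The receptor genes did not move in step. Tgfbr2, the type II receptor that binds the ligand, was at 0.400 and 0.382 per 10000 in the low class, 0.124 and 0.124 in the middle class, and 0.0428 and 0.0387 in the high class. That is 9.35- and 9.89-fold lower in high than in low cells, with no overlap between classes. Tgfbr1, the type I receptor that signals to the SMADs, was at 0.160 and 0.176 in the low class, 0.138 and 0.124 in the middle class, and 0.0908 and 0.0755 in the high class. In the middle class its interval met that of the low class in library 1 (log2 -0.22, -0.46 to 0.01), and in the high class it was 1.77- and 2.33-fold lower per 10000 UMIs, but not per cell (log2 0.33 and -0.06). Tgfbr2 fell further than Tgfbr1 in both libraries, by log2 -2.41 (-2.80 to -2.01) and -2.09 (-2.48 to -1.70) from low to high and by -1.47 (-1.79 to -1.15) and -1.12 (-1.43 to -0.80) from low to middle. The counts behind these values were 99 and 107 UMIs of Tgfbr2 and 210 and 209 of Tgfbr1 in the high class.

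**Figure D1:**
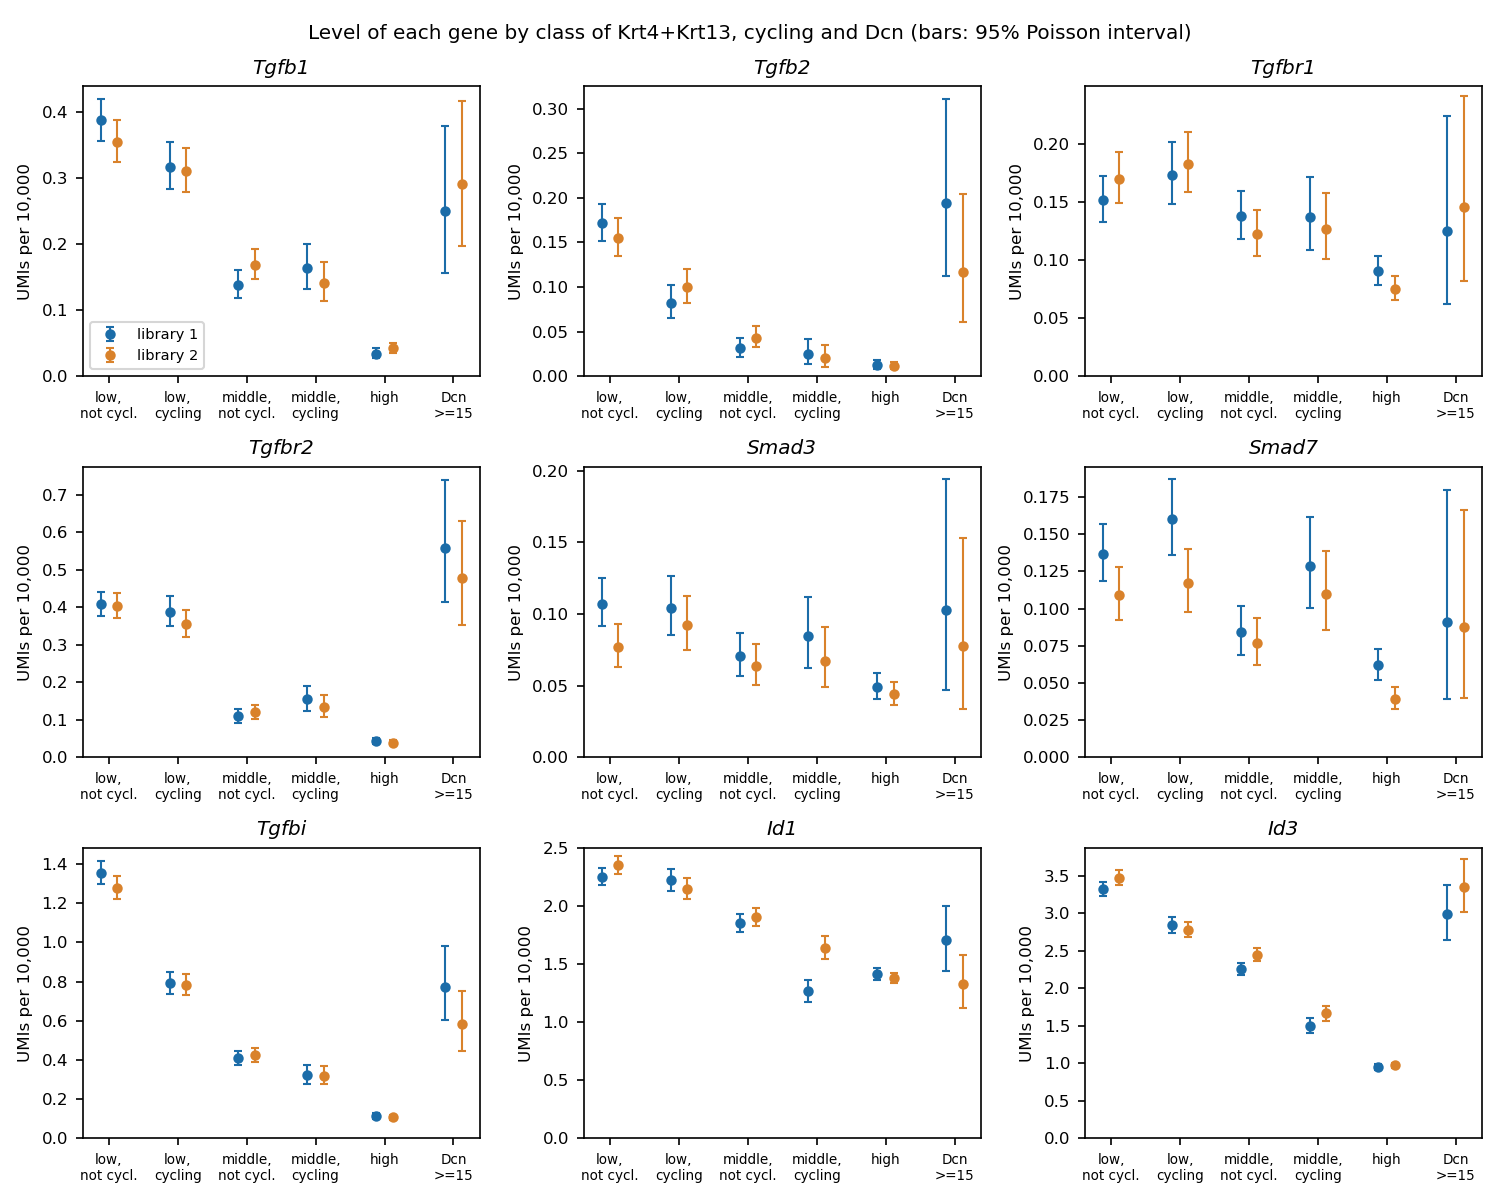
Levels of the 9 genes (vertical axis, UMIs per 10000, from 0) in 6 classes of cells (horizontal axis), with 1 point per library and bars for the 95% Poisson interval of the count. In every panel the high class lies below both low classes, most of all for Tgfb1, Tgfb2, Tgfbr2 and Tgfbi and least for Id1 (1.42 and 1.38 in the high class).

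The SMAD genes were sparse and their differences smaller. Smad3, the receptor-activated transducer, was at 0.106 and 0.0836 in the low class, 0.0748 and 0.0648 in the middle class, and 0.0493 and 0.0441 in the high class, from 114 to 267 UMIs a class and library. High cells were 2.16- and 1.90-fold lower than low cells per 10000 UMIs, but not per cell (log2 0.05 and 0.23). Smad7, the inhibitory SMAD, was at 0.146 and 0.113 in the low class, 0.0979 and 0.0878 in the middle class, and 0.0618 and 0.0394 in the high class, or 2.36- and 2.86-fold lower from low to high. Smad7 was also the gene furthest apart between libraries, at log2 -0.41 (-0.58 to -0.25) for library 2 minus library 1 over all kept cells, against 0.00 for Id1. Smad7 and Smad3 did not differ beyond counting error in library 1 (difference -0.13, -0.57 to 0.31), and Smad7 fell further in library 2 (-0.59, -1.07 to -0.12).

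Of the targets, Tgfbi followed the ligands and Tgfbr2. Its level was 1.14 and 1.06 per 10000 in the low class, 0.381 and 0.391 in the middle class, and 0.112 and 0.108 in the high class. That was 10.1- and 9.87-fold lower from low to high (log2 -3.34, -3.53 to -3.15, and -3.30, -3.48 to -3.13), with no overlap between any classes. The Id genes, whose products hold back differentiation factors by binding them, were measured most precisely, from 2192 to 7880 UMIs a class and library. Id3 was at 3.14 and 3.17 in the low class, 2.02 and 2.19 in the middle class, and 0.948 and 0.973 in the high class, 3.31- and 3.26-fold lower from low to high. Id1 was at 2.24 and 2.27, then 1.67 and 1.82, then 1.42 and 1.38, 1.58- and 1.64-fold lower per 10000 UMIs but higher per cell (log2 0.49 and 0.44). Id3 fell further than Id1 by log2 -1.06 (-1.16 to -0.97) and -0.99 (-1.08 to -0.91) from low to high.

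A gene was called by size when it differed at least 1.5-fold in the same direction in both libraries and reached 0.2 per 10000 over all kept cells, a rule without a p-value. Tgfbi, Id1 and Id3 reached that floor, and the other 6 genes lay between 0.0617 (Tgfb2) and 0.190 (Tgfbr2). From low to high, 3 of 3 were called lower and 0 higher, where 29.4% of the 5113 genes tested were lower and 9.62% higher. With the floor at 0.05, 9 of 9 were lower, against 37.0% lower and 8.59% higher among 9009 genes, so a lower level in the high class was common among all genes. The Id1 call was lost with Krt4 and Krt13 taken out of the total (mean log2 -0.59) and in thinned cells (-0.63). The median log2 difference was -1.72 for the 9 genes and -0.42 for all 9009. From low to middle, 1 of 3 (Tgfbi) was called lower and none higher, against 5.87% lower and 5.26% higher. At the floor of 0.05, 4 of 9 (Tgfb1, Tgfb2, Tgfbr2 and Tgfbi) were lower, against 8.99% lower and 4.75% higher, and the medians were -0.58 and -0.09. Id3 missed the rule there in library 2 alone (1.55- and 1.45-fold).

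The size of these differences depends on the scale, because high cells held more UMIs: 15911 and 13467 per cell on average against 7147.9 and 6041.0 in low cells. On this scale of UMIs per cell, chosen after the data were seen, Tgfbi still fell, from 0.811 and 0.642 to 0.179 and 0.145 UMIs per cell, by log2 -2.18 and -2.15. Tgfb1, Tgfb2 and Tgfbr2 fell as well, by mean log2 -2.04, -2.29 and -2.11. Id3 was lower by -0.57 (-0.64 to -0.50) and -0.55 (-0.61 to -0.49), within 1.5-fold. Id1 turned: it had 1.60 and 1.37 UMIs per low cell and 2.25 and 1.86 per high cell, log2 0.49 (0.43 to 0.55) and 0.44 (0.38 to 0.50) higher. Tgfbr1 had 0.115 and 0.106 UMIs per low cell and 0.144 and 0.102 per high cell, Smad3 0.0759 and 0.0505 against 0.0784 and 0.0593, and Smad7 0.104 and 0.0681 against 0.0984 and 0.0530. UMIs per cell move with cell size and with capture, and these cannot be told apart here. On the scale of the median gene, where the 5113 tested genes centre on no change, 779 were higher and 939 lower in place of 492 and 1501, Id1 stood at log2 -0.42 and Tgfbr1 at -0.75, both short of the rule, and the other 7 still met the fold.

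Levels were also taken in finer steps of the keratin scale, as a description. Cells were placed in 8 steps of Krt4+Krt13 (cut points 10, 20, 40, 80, 160, 350 and 700), the first of which held only 29 and 18 cells and is left out of what follows. Tgfbi was at a mean of 1.12, 1.16 and 1.03 per 10000 in steps 2 to 4, which lie inside the low class, then 0.473, 0.316, 0.144 and 0.0620. Tgfbr2 was at 0.439, 0.422, 0.346, 0.174, 0.0838, 0.0515 and 0.0256 in the same steps. In the step from 80 to 160 both stood at 40.6% to 41.9% of their level in the 20 to 40 step, in each library. Tgfb2 was lower there, at 24.8% and 36.0%, while Tgfb1 was at 57.8% and 68.9%. Cycling cells made up 34.7% and 37.7% of that step and 29.9% and 34.3% of the step before.

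In the last step (700 or more) every one of the 9 genes was at its lowest per 10000 UMIs, in both libraries. The share of all genes that were lowest there is not given, so this is a description. Cells of that step held a median of 19953 and 16808 UMIs, against 6578 and 5482 in the 20 to 40 step. Tgfb1 was at 4.19% and 7.52% of its level in the 20 to 40 step, Tgfb2 at 5.11% and 2.77%, Tgfbr2 at 5.65% and 6.51% and Tgfbi at 4.69% and 6.01%. Only 5 to 29 UMIs of either ligand gene were counted there in a library. Id1, at 53.3% and 53.9%, Tgfbr1, at 47.1% and 35.2%, Smad3, at 37.3% and 46.8%, and Smad7, at 32.7% and 27.6%, kept far more. Id3 took a course of its own, at 67.3% and 72.3% in the 80 to 160 step and 16.8% in both libraries in the last. Per 10000 UMIs, the 9 genes thus fell into a steep set of 4 and a shallow set of 4, with Id3 between.

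**Figure D2:**
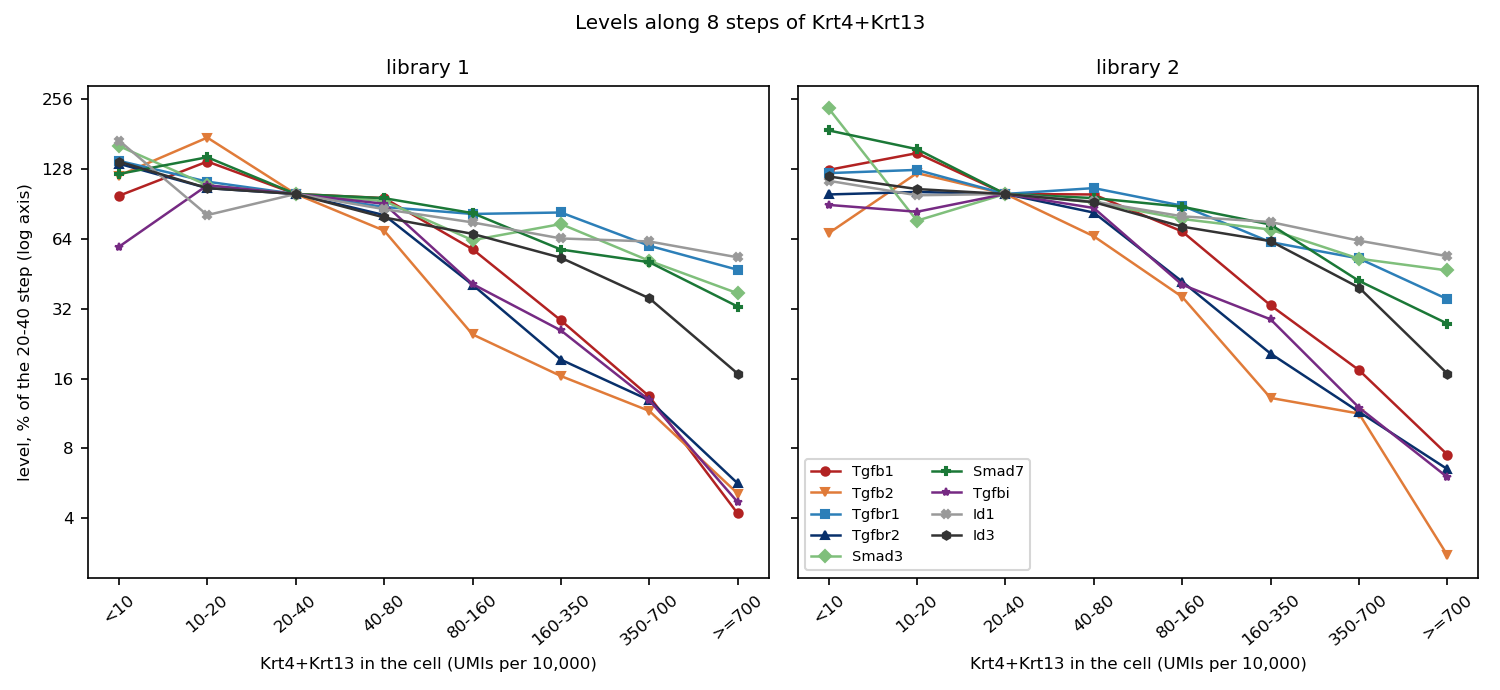
Level of each gene in 8 steps of Krt4+Krt13 (horizontal axis, UMIs per 10000 in the cell) as a percentage of its level in the 20 to 40 step (vertical axis, log scale), with 1 panel per library and 1 line per gene. Tgfb1, Tgfb2, Tgfbr2 and Tgfbi end at 2.77% to 7.52%, Id3 at 16.8%, and the other genes at 27.6% or more. The first step holds 29 and 18 cells.

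Cycling cells were compared with the remaining cells inside the low class, since 70.4% and 70.2% of all cycling cells were low. A cell was called cycling at 10 or more per 10000 of Top2a, Cenpf, Ube2c and Ccnb1, genes of the G2 and M phases, which gave 1124 and 1484 low cells. This cut does not screen for S phase, so cells called not cycling can include S-phase cells. A list of 6 S-phase genes summed to 5.43 and 5.37 per 10000 in cycling and 2.36 and 2.48 in the remaining low cells. Tgfbi was lower in cycling low cells, at 0.791 and 0.785 against 1.36 and 1.28 per 10000, log2 -0.78 (-0.90 to -0.66) and -0.71 (-0.82 to -0.59). It was the 1 of 3 genes called lower, against 3.72% of all genes lower and 7.33% higher. At the floor of 0.05, Tgfb2 joined it, at 0.0822 and 0.0998 against 0.171 and 0.155, so 2 of 9 were lower, against 4.91% lower and 8.03% higher. None of the 9 was called higher. Tgfb1 stood at log2 -0.29 (-0.49 to -0.09) and -0.19 (-0.40 to 0.01), and Id3 at -0.22 (-0.29 to -0.16) and -0.32 (-0.39 to -0.25).

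None of the receptors, the SMADs and Id1 met the rule between cycling and remaining low cells. Tgfbr2 was at log2 -0.08 (-0.26 to 0.11) and -0.18 (-0.38 to 0.01), and Tgfbr1 at 0.19 (-0.10 to 0.48) and 0.11 (-0.17 to 0.38). Smad7 was at 0.23 (-0.08 to 0.53) and 0.11 (-0.25 to 0.46). Cycling cells held a median of 8282 and 6883 UMIs against 5965 and 4895 in the remaining low cells, so UMIs per cell gave other values. On that scale Tgfbi was at log2 -0.32 and -0.25, within 1.5-fold, and Tgfb2 at -0.60 and -0.18, past it in library 1 alone. Tgfbr1 (0.65 and 0.56), Smad7 (0.69 and 0.56) and Smad3 (0.42 and 0.72) lay on the higher side, each past 1.5-fold in 1 library only, and none of the 9 met the fold in both libraries. Tgfb2 also missed the rule by the mean over cells and in thinned cells. The basal markers also moved with cycling, summing to 122.0 and 123.6 per 10000 in cycling and 173.6 and 177.4 in the remaining low cells, and their part in the Tgfbi result was not tested.

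Over all classes together, only 9 and 16 of the cycling cells were in the high class. At the floor of 0.05, Tgfbr2 (log2 0.86 and 0.83), Smad7 (0.74 and 0.79) and Tgfb1 (0.65 and 0.70) were called higher in cycling cells and none of the 9 lower, against 15.7% of all genes higher and 6.59% lower. At the floor of 0.2 none of the 3 genes tested was called, against 12.9% higher and 6.67% lower. The sign turned for Tgfbi, with cycling cells higher by a mean log2 of 0.24. Cycling and the keratin classes move together in this comparison, and their parts cannot be told apart in it.

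In the middle class the cycling contrast was smaller for Tgfbi, at 0.322 and 0.320 against 0.408 and 0.426 per 10000, log2 -0.34 (-0.59 to -0.10) and -0.41 (-0.65 to -0.18). Id3 was at -0.59 (-0.71 to -0.48) and -0.56 (-0.66 to -0.46), past 1.5-fold in library 1 alone. Smad7 lay on the other side, at 0.129 and 0.110 in cycling against 0.0840 and 0.0768 in the remaining middle cells, log2 0.61 (0.16 to 1.06) and 0.52 (0.05 to 0.97). None of the 9 met the rule in both libraries there, against 2.72% of all genes lower and 7.86% higher, or 3.69% and 8.76% at the floor of 0.05. These middle cycling cells numbered 464 and 614, and differences between the middle and the low class in these contrasts were not tested.

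Decorin, the product of Dcn, is a small proteoglycan that can bind TGF-β, and cells with 15 or more Dcn UMIs per 10000 were looked at apart. There were 128 and 162 such cells, of which 119 and 154 were in the low class. They carried basal keratin, with Krt15 at 70.6 and 68.5 per 10000, and no fibroblast profile: 5 of 7 fibroblast markers (Col1a1, Col3a1, Lum, Pdgfra and Dpt) were at 0 in both libraries, and the summed level of 0.791 and 0.861 was nearly all Fbln1. In low cells below the Dcn cut the same list summed to 0.364 and 0.355. No cell of either library reached 20 per 10000 of Col1a1, Col1a2 and Col3a1.

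None of the 9 genes was called in Dcn-positive low cells, in either direction and at either floor. The background was 1.19% of genes higher and 3.19% lower, and at the floor of 0.05 it was 2.68% and 4.02%. Tgfbi was at 0.828 and 0.621 against 1.15 and 1.08 per 10000, log2 -0.47 (-0.84 to -0.12) and -0.80 (-1.20 to -0.42), and missed the rule in library 1. Id1 was at 1.81 and 1.32 against 2.26 and 2.30, log2 -0.32 (-0.57 to -0.08) and -0.80 (-1.08 to -0.54). Both met the rule once cycling cells were left out, Id1 at -0.81 (-1.16 to -0.48) and -1.13 (-1.51 to -0.78) and Tgfbi at -0.66 (-1.09 to -0.25) and -0.91 (-1.40 to -0.47), over 95 and 112 Dcn-positive cells, where 4.38% of all genes were lower and 1.37% higher, or 5.12% and 3.2% at the floor of 0.05. Cycling cells made up 20.2% and 27.3% of the Dcn-positive and 32.4% and 36.6% of the remaining low cells.

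The other genes gave wide intervals. Tgfbr2 was at 0.565 and 0.501 in Dcn-positive low cells against 0.395 and 0.378, log2 0.52 (0.05 to 0.95) and 0.41 (-0.05 to 0.84), from 45 and 46 UMIs. Id3, measured far more precisely, was level at 3.11 and 3.26 against 3.14 and 3.17, with differences of -0.01 (-0.20 to 0.17) and 0.04 (-0.13 to 0.21). The difference between Id1 and Id3 in these cells was not tested. Tgfb2 pointed in opposite directions in the libraries (0.67 and -0.43), on 17 and 9 UMIs. Smad3, Smad7, Tgfb1 and Tgfbr1 had intervals that spanned 0 in both libraries.

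**Figure D3:**
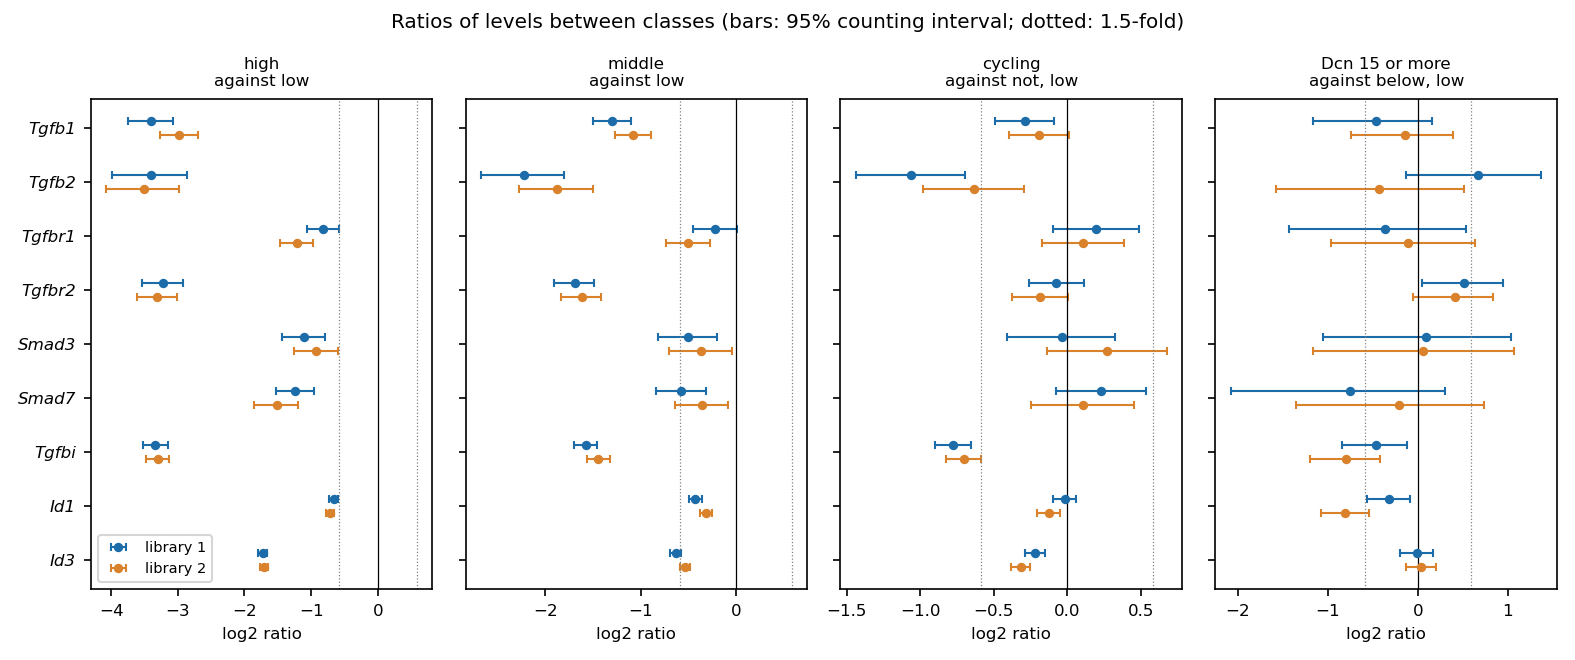
Log2 ratios of the 9 genes (rows) in 4 comparisons (panels), with 1 point per library and bars for the 95% counting interval, where dotted lines mark 1.5-fold and the horizontal axes differ. All points of the first panel lie left of 0, Tgfbi and Tgfb2 lie left of the line for cycling cells, and in the Dcn panel most bars cross 0.

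Shares of cells with at least 1 UMI were taken after thinning each cell to 3000 UMIs, which left no cell out. Tgfbi was found in 26.9% and 26.0% of low and 3.58% and 2.68% of high cells (unthinned 48.2% and 41.2%, and 13.7% and 11.7%). Tgfbr2 was found in 11.9% and 11.0% of low and 1.03% and 1.17% of high cells (unthinned 24.3% and 19.7%, and 5.85% and 4.67%). Both shares fell with the levels. Id1 kept 29.8% and 29.8% of high cells against 36.4% and 36.8% of low cells, and its unthinned share was higher in high cells (64.6% and 61.3%) than in low cells (53.3% and 51.4%). Id3 was found in 44.7% and 45.1% of low and 22.6% and 23.2% of high cells (unthinned 61.2% and 58.6%, and 56.0% and 51.4%).

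Cells with 50 or more UMIs per 10000 of immune markers, 21 and 35 in number, were looked at as a possible reference for free RNA of keratinocyte genes. They held Krt13 at 31.8 and 28.9 per 10000, against 27.5 and 27.2 in the low class. Of these immune cells 18 and 30 were in the low class, so their level includes cells that the low class leaves out by definition. The comparison therefore cannot show whether Krt13 in the low class was free RNA. As this was not tested, no order of cells is read from the steps inside the low class. After thinning, Id1 was in 0 of 21 immune cells of library 1, which allows a share of up to 14.3% from 3 counts and 16.1% by the exact binomial limit, and in 11.4% (3.20% to 26.7%) of the 35 of library 2, at median depths of 6374 and 7351 UMIs before thinning. Unthinned, the shares were 14.3% and 22.9%. High cells, at median depths of 14725 and 11984, exceeded both. For Id3 the immune share was 19.1% (5.45% to 41.9%) in library 1 and 5.71% (0.700% to 19.2%) in library 2. The 22.6% of high cells in library 1 was within the interval of this reference, and the 23.2% of library 2 was above it. Whether the Id1 and Id3 UMIs of the immune cells were free RNA or their own was not tested. These shares therefore do not measure free RNA. Tgfb1 and Tgfbi could not be judged this way, as the immune cells held them at 1.68 and 1.45 and at 2.45 and 1.75 per 10000, above the low class. The same holds for Tgfbr1, at 0.451 (0.181 to 0.929) and 0.573 (0.334 to 0.918) from 7 and 17 UMIs. It also holds for Smad7, at 0.773 (0.399 to 1.35) and 0.337 (0.162 to 0.620) from 12 and 10 UMIs. Whether the few UMIs of Tgfb1, Tgfb2, Tgfbr2 and Tgfbi in high cells were free RNA was not tested.

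A second minor population carried the Id genes and Smad7 at higher levels than the keratinocyte classes. Cells with 5 or more per 10000 of Krt7 and Krt18, keratins of simple and glandular epithelium, numbered 68 and 54. They held Id1 at 6.70 and 6.77 per 10000 (5.96 to 7.52 and 5.85 to 7.79) and Id3 at 7.51 and 6.10 (6.71 to 8.37 and 5.23 to 7.08), above the intervals of the low class in both libraries. Id1 had a UMI in 73.5% and 61.1% of them after thinning. Smad7 was at 0.413 (0.245 to 0.653) and 0.314 (0.144 to 0.596) in them, from 18 and 9 UMIs, also above the low class in both libraries. Immune cells held Smad7 above the low class too, as given above, so this is not particular to the Krt7 and Krt18 cells. For the remaining genes, the intervals of the Krt7 and Krt18 cells did not lie above those of the low class in both libraries. These cells gave 4.59% and 3.26% of the Id1 UMIs of the low class, and immune cells gave 2.87% and 5.16% of its Tgfb1 UMIs. With both populations left out, every call on the 9 genes was kept.

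Within the low cells that were not cycling, Id3 was found more often in cells with an Id1 UMI than in cells without. After thinning, Id3 had a UMI in 62.9% (59.6% to 66.2%) and 64.6% (61.5% to 67.7%) of the cells with an Id1 UMI, and in 35.3% (32.9% to 37.8%) and 34.6% (32.3% to 36.9%) of those without. The gap was as wide without the immune and glandular cells, at 61.9% and 64.5% against 35.3% and 34.8%. It was also found in low cycling cells (58.6% and 61.2% against 34.4% and 34.2%) and in the middle class (50.9% and 51.1% against 29.7% and 27.2%). In the high class it narrowed to 27.3% and 29.7% against 20.7% and 20.4%. Of the 36 pairs of the 9 genes, this was the only one whose intervals were apart in both libraries in low cells that were not cycling. Cells of 1 suspension are not replicates, so these intervals cover counting error only.

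No such link was seen between receptor, ligand and target in the thinned low cells that were not cycling. Tgfbi had a UMI in 26.7% (21.7% to 32.2%) and 27.4% (22.5% to 32.8%) of these cells with a Tgfbr2 UMI, and in 31.9% (29.9% to 33.9%) and 29.2% (27.4% to 31.1%) of those without. With and without a Tgfb1 UMI it was in 30.0% and 32.1% against 31.4% and 28.7%. Tgfbr2 was found in 15.3% and 17.4% of these cells with Tgfbr1 and in 12.1% and 11.3% of those without, with overlapping intervals. Genes found in few cells leave such shares imprecise, and a link of a few percentage points was not detectable at this depth.

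The counts of the Id genes also ranged widely from cell to cell. In the same thinned cells, 54.7% and 54.5% had 0 Id3 UMIs while 13.9% and 14.5% had 3 or more, up to 15 and 13 in 1 cell. For Id1, 63.9% and 63.7% had 0 and 7.65% and 8.57% had 3 or more, up to 18 and 12. Tgfbr1, Smad3 and Smad7 stayed at 0 in 94.7% or more of low cells that were not cycling, in both libraries. Their means were also far lower, at 0.0237 to 0.0536 UMIs per thinned cell, against 1.04 and 1.05 for Id3 and 0.683 and 0.715 for Id1. Spread beyond that given by the level was not tested, nor was the part of the Krt7 and Krt18 cells in it.

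Of 82 other pathway genes, 22 reached the floor of 0.2 and 43 the floor of 0.05. At 0.2, 14 of 22 were called lower and 2 higher from low to high (median log2 -0.96), and at 0.05 27 of 43 were lower and 4 higher (median -0.83). Snai2, a transcription factor gene linked to epithelial migration and basal identity, fell from 0.858 to 0.0576 per 10000 (log2 -3.97 and -3.83). Tgif1, a SMAD corepressor gene, fell from 0.398 to 0.0390 (-3.47 and -3.26), and Ltbp4, a latent TGF-β binding protein gene, from 0.576 to 0.107 (-2.48 and -2.37). On the other side, the cyclin-dependent kinase inhibitor genes Cdkn1a and Cdkn2b, both textbook targets of TGF-β, rose from 0.549 to 4.12 (2.91 in each library) and from 0.0287 to 0.254 (3.15 and 3.14). Hes1, a target shared with Notch signalling, rose from 1.99 to 3.88 (1.01 and 0.92), and Itgb5, an integrin chain gene, from 0.101 to 0.234 (1.37 and 1.03).

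By role, all 5 BMP ligand genes that reached the lower floor (Bmp1, Bmp2, Bmp3, Bmp4 and Bmp7, of which Bmp1 encodes a protease despite its name) were lower in high cells, with a median log2 of -2.02. Among genes of latency and activation, 6 of 7 were lower (Ltbp3, Ltbp4, Itgav, Itgb6, Furin and Mmp14). Of 6 other receptor genes 3 were lower (Tgfbr3, Acvr2a and Bmpr1a), and of 4 other SMAD genes Smad4 and Smad5 were lower while Smad1 and Smad2 were not called. None of the 6 other TGF-β and activin ligand genes reached either floor. These counts stand against the 37.0% of all genes that were lower at that floor.

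The lower calls among pathway genes also depend on the scale. On UMIs per cell the difference of high minus low is larger by log2 1.15 and 1.16 for every gene, which lowers the size of a fall and raises that of a rise. Of the 27 genes called lower at the floor of 0.05, 8 still fell by 1.5-fold or more in both libraries (Bmp1, Bmp2, Bmp3, Bmp4, Tgfbr3, Tgif1, Ltbp4 and Snai2) and 8 were lower by less, among them Smad4 and Smad5. For 8 genes the direction turned in both libraries (Bmp7, Acvr2a, Bmpr1a, Smurf2, Zfyve9, Ltbp3, Itgav and Furin), though none of these by 1.5-fold, and for 3 (Ski, Itgb6 and Cyr61) the libraries pointed in opposite directions. This left 1 of the 6 latency genes and 1 of the 3 receptor genes past 1.5-fold. The 4 genes called higher (Cdkn1a, Cdkn2b, Hes1 and Itgb5) were past it on both scales, but the shift alone ensures this for any gene called higher. Among all 5113 genes tested at the higher floor, 320 were lower and 3355 higher on UMIs per cell, in place of 1501 and 492. The counts over all genes on this scale are not given at the floor of 0.05. Whether the 27 genes kept more calls than genes in general was therefore not tested.

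From low to middle, 4 of 22 pathway genes were lower and 2 higher at 0.2, and 10 of 43 were lower and 4 higher at 0.05 (median -0.42 and -0.38). Among all genes 5.87% were lower and 5.26% higher at 0.2, and 8.99% lower and 4.75% higher at 0.05. Cdkn1a (0.549 to 2.12), Hes1 (1.99 to 4.17) and Cdkn2b (0.0287 to 0.133) were already higher there. Snai2 was at 0.237, Tgif1 at 0.169, Ltbp4 at 0.293 and Cyr61, a matricellular gene, at 0.0258, each past the rule. In cycling low cells, Smad4, the common SMAD, was higher (0.396 against 0.252, log2 0.70 and 0.60), and Junb, an AP-1 subunit gene, was lower (0.872 against 1.45). These were 1 higher and 1 lower of 43, below the 8.03% higher and 4.91% lower among all genes at the floor of 0.05, so the pathway genes did not stand out in this comparison.

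In Dcn-positive low cells 1 of 43 pathway genes was called higher and 2 lower, near the 2.68% higher and 4.02% lower among all genes at that floor, and the values are given as a description. Pmepa1, a feedback inhibitor gene induced by TGF-β, was at 0.0586 against 0.225 per 10000. That is log2 -1.87 (-3.50 to -0.64) and -2.02 (-3.65 to -0.79), from only 5 UMIs in each library. Id2, another Id gene, was at 1.82 against 2.89 (-0.69 and -0.65), on the same side as Id1. Bmp7, a BMP ligand gene, was called higher at 0.230 against 0.128, from 21 and 18 UMIs. Its log2 differences were 0.98 (0.27 to 1.61) and 0.67 (-0.10 to 1.36), so the interval of library 2 includes 0. Fibroblast markers moved with this class as given above, and immune markers did so in the opposite direction (0.138 and 0.196 against 4.14 and 10.1). Their part in these results was not tested, though with immune and glandular cells left out Tgfbi stood at a mean log2 of -0.63 and Id1 at -0.53.

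**Figure D4:**
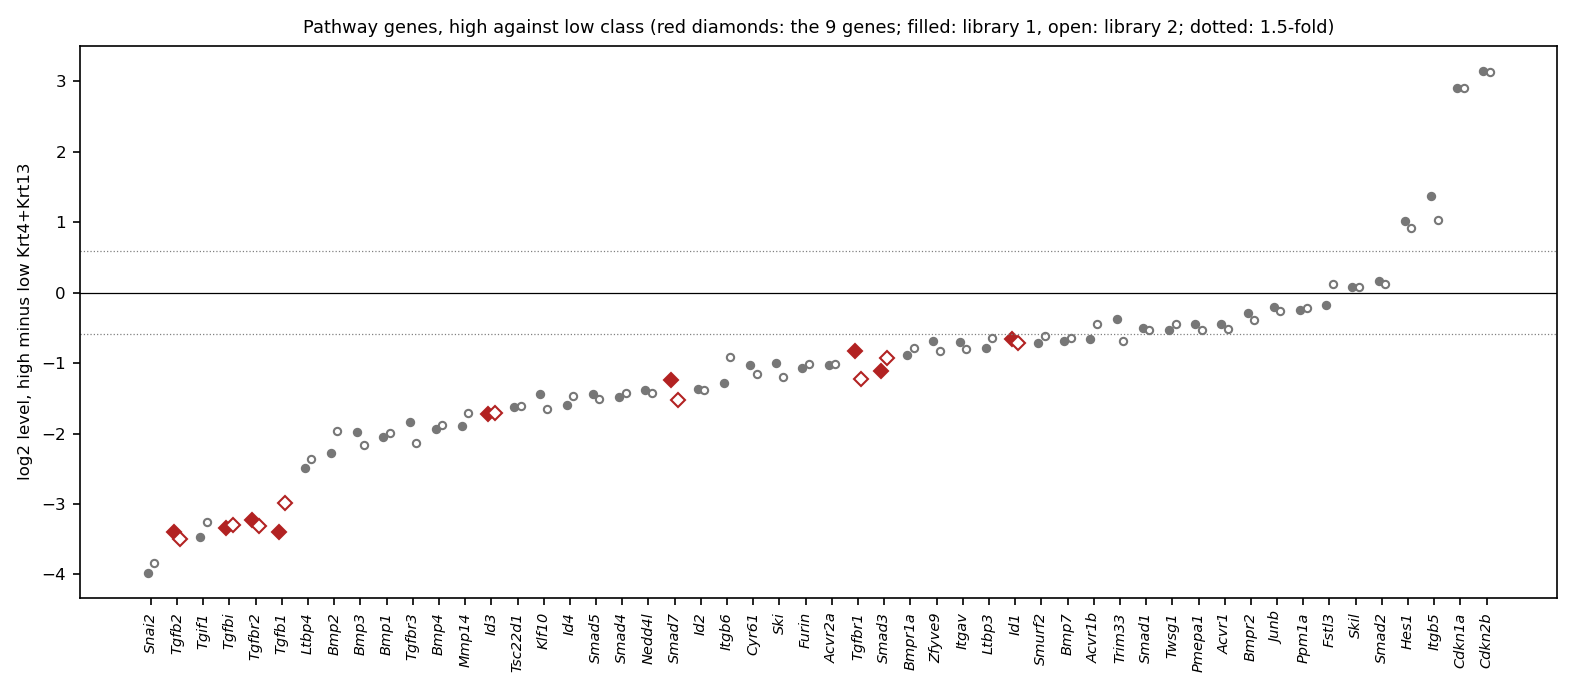
Log2 difference of levels, high minus low Krt4+Krt13 class (vertical axis), for the 9 genes (red diamonds) and the 43 other pathway genes at 0.05 or more per 10000 (grey circles), ordered by the mean of the libraries (filled, library 1; open, library 2), with dotted lines at 1.5-fold. Snai2 lies lowest, Tgfb2, Tgif1, Tgfbi, Tgfbr2 and Tgfb1 follow, and Itgb5, Cdkn1a and Cdkn2b lie highest.

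For likeness, each gene was compared with 5119 or 5120 others at 0.2 or more over 12 profiles, the 3 keratin classes by cycling or not in each library. These profiles share libraries, and those of high cycling cells rest on 9 and 16 cells, so the values are descriptions. The gene most like Tgfbi was Rbbp8 (Pearson r of log2 levels 0.994), followed by Cdcp1 and Lamb3 (both 0.991), the last a laminin chain gene of the basement membrane. Tgfbr2 was most like Rnase4 (0.985) and Itgb4 (0.981), the gene of the integrin chain used for the sort. Tgfb1 was most like Cav1 (0.989) and Tgfb2 most like Nras (0.969). Tgfbr1 was most like Def6 (0.991), Smad3 most like R3hdm2 (0.960), Smad7 most like Gabpb2 (0.959), Id1 most like Ninj1 (0.947) and Id3 most like Ptk7 (0.979).

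Without the profiles of high cycling cells, an alternative chosen after the data were seen, every leading gene was another one. Tgfbi was then most like Krt14 (0.997), the keratin gene of the basal layer, Tgfbr2 most like Pltp (0.997) and Igf1r (0.997), and Tgfb1 most like Thap3 (0.998). The names closest to each gene thus depend on these few cells.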

How the data were processed

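Cells of 1 pooled suspension were measured in 2 technical libraries. The deposited values are UMI counts per gene and cell barcode, made with Cell Ranger on mm10 per the submitters' processing notes, with the version, annotation and cell filter not given in the sources used here. The counts were read as deposited. The lowest kept barcode had 3364 and 3149 UMIs, so empty droplets had been removed. No doublet caller was run. Of the file's genes, 27645 (98.7%) matched GENCODE M21 by identifier.

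The 9 genes, the pathway and marker lists, the cut points and the alternatives were chosen with earlier results of these data known. UMIs were summed per class and library, classes follow the cut points in the text, and means weight libraries equally. Intervals are 95%: exact Poisson for levels, exact binomial for shares and exact conditional for ratios. They cover counting error only. A count of 0 was set to 3 for a ratio. Genes used to form classes stayed out of the background. Named pathway genes are up to 3 called per direction and comparison with the largest smaller-library ratio. 1 listed pathway gene is not reported here and stayed out of the counts. The size rule was tested on simulated counts. Promoter sequences are RefSeq's (GRCm38.p6). Id1 and Smad7 had no entry, and Id3's window lies within its gene and is not printed. Scripts ran in Python 3.11.15 (scipy 1.17.1 and numpy 2.4.6 for statistics, matplotlib 3.10.9 for plots, pandas 2.3.3 for tables).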

Additional observations from a re-analysis of the deposited data

Results flagged for a closer look

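Tgfbr2 differed between cycling and remaining cells in opposite directions in the low and the middle class, in both libraries. The mean log2 difference was -0.13 in the low class and 0.326 in the middle class. In the low class the intervals of both libraries include 0, and in the middle class that of library 2 does. On UMIs per cell the low class lay on the same side as the middle class, at 0.325. The difference between the classes was not tested, since there is 1 independent sample.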

How the results depend on the processing

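Of 603 alternative values over 36 gene results and 20 settings, 572 kept their side of the fold rule taken without a floor, 13 passed it only under the alternative, 15 missed it only there and 3 that passed it as reported changed direction. A further 23 values that passed it neither way changed sign, 7 of them on UMIs per cell. The 3 were on UMIs per cell, not scaled, an alternative chosen after the data were seen: from low to high, Tgfbr1 was at log2 0.136, Smad3 at 0.139 and Id1 at 0.467. On that scale the genes called lower were 1 from low to high and 0 in cycling low cells, in place of 3 and 1. Among all 5113 genes tested, 320 and 40 were lower on it, in place of 1501 and 190. In what follows 3 of the 9 genes were tested unless another number is given, and brackets hold the lower calls among all genes tested. From low to high, the mean over cells called 5 lower (1521 of 5307), since 5 genes then reached the floor. The floor of 0.05 called 9 of 9 (3334 of 9009) and thinned cells 4 of 5 (1448 of 5297). Leaving out library 2 called 4 of 4 (1609 of 5130). It was 2, in place of 3, with Krt4 and Krt13 out of the total, with median-of-ratios scaling (Id1 at -0.419) and at 2-fold, each without Id1. Of all genes, 1302 of 5216, 939 of 5113 and 748 of 5113 were lower in these settings, in that order. From low to middle, 1 was called lower (300 of 5113), 3 of 5 by the mean over cells (344 of 5307) and 3 of 5 in thinned cells (334 of 5297). It was 4 of 9 at the floor of 0.05 (810 of 9009) and 2 with cut points at 100 and 450 (464 of 5113). With mitochondrial UMIs at most 5% it was 2 (273 of 4979). With a library left out it was 1 to 3 (3 of 4 without library 2). Of all genes, 347 of 5076 were lower without library 1 and 354 of 5130 without library 2. In cycling low cells 1 was called lower (190 of 5113), 2 of 9 at the floor of 0.05 (442 of 9009) and 0 at 2-fold (40 of 5113). For Dcn, 0 were called lower (163 of 5113), 1 at a Dcn cut of 25 (266 of 5113) and 2 with mitochondrial UMIs at most 5% (216 of 4979). It was 2 without cycling cells (224 of 5113) and 0 to 2 when a library was left out (2 without library 1). Of all genes, 318 of 5076 were lower without library 1 and 450 of 5130 without library 2. No paired analysis was possible because the libraries are technical splits of 1 group and no result comes from a test. Depth limits the Dcn contrast most, with 7 to 46 UMIs per library for Tgfb1, Tgfb2, the receptors and the SMADs.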
